A study of Mus musculus with 3 samples.

Results

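Fatty acid oxidation and its link to ketone synthesis were followed through 8 genes, Cpt1a, Cpt2, Acadm, Acadl, Hadha, Hadhb, Acaa2 and Ppara, across the cell classes of the mouse intestine and 3 treatment groups. The genes were chosen by name, for their place in the pathway, and all 8 were among the 13891 genes of the table, each with UMIs in every library. A UMI is a molecular tag that marks 1 captured RNA molecule. The mice were male, of the outbred ICR strain, and 3 weeks old at the start. AOS 0 received vehicle alone, B + A 0 received 1 injection of busulfan at 40 mg/kg and then vehicle, and B + A 10 received the same injection and then alginate oligosaccharides (AOS) at 10 mg/kg, with the gavage lasting 2 weeks. The groups are those of the sample titles, treatments and column prefixes, whereas the source field of the labels names the library B + A 0 as AOS10 and the library B + A 10 as B+A0, a conflict that bears on every comparison between libraries. Busulfan is an alkylating drug used against leukemia, and AOS are short sugar chains cut from alginate, a seaweed polymer. Each group was 1 droplet library (10x Genomics, 3′ v2 chemistry) of the combined cells of 6 mice, so mice within a group cannot be told apart. The question for these genes was where along the stem cell to enterocyte axis they were transcribed, and whether the levels differed between vehicle, busulfan, and busulfan with AOS. With 1 library per group there was no replicate check and no test, and every interval below is a 95% interval that covers counting error only.

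Fatty acids are burned in mitochondria in a fixed order of steps. Long-chain acids are first tied to coenzyme A, then passed to carnitine by Cpt1a on the outer membrane and back to coenzyme A by Cpt2 on the inner membrane. Each turn of the oxidation spiral then takes a dehydrogenase (Acadl and Acadm act on long and medium chains), a hydratase and a second dehydrogenase (both held by Hadha in the trifunctional protein), and a thiolase (Hadhb in the trifunctional protein, Acaa2 for shorter chains). The product is acetyl-CoA, which feeds the citrate cycle or ketone synthesis, and Ppara is the fatty acid sensing nuclear receptor that drives transcription of many of these genes. None of the 8 genes is itself an enzyme dedicated to ketone synthesis. Those enzymes were followed as a separate list. In the intestine, absorptive enterocytes of the villus take up dietary fat, and stem cells at the crypt base are known to use fatty acid oxidation too.

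In the RefSeq annotation of GRCm38.p6, Cpt1a lies at chr19:3322326-3385735, Cpt2 at chr4:107903982-107923589, Acadm at chr3:153922353-153944643, Acadl at chr1:66830839-66863309 and Ppara at chr15:85734910-85806851. Hadha (chr5:30119423-30154980) and Hadhb (chr5:30155253-30184593) stand head to head, on opposite strands, with start sites 273 bases apart. The 2 subunits of the trifunctional protein therefore share a promoter region, and the 85 bases at chr5:30155163-30155247 that no GENCODE exon of either gene covers are shown on the Hadhb strand. Capitals mark GGGCGG, the GC box that Sp1-type factors recognise. The stretch before a first exon of Cpt1a, chr19:3323051-3323284 on the plus strand, is shown because Cpt1a was the member that differed most between libraries. This stretch lies inside the Cpt1a span given above, downstream of the outermost start of the gene. Its capitals mark a single AGGTCA hexamer read on the other strand, the core of the element that nuclear receptors such as Ppara recognise.
Hadha and Hadhb: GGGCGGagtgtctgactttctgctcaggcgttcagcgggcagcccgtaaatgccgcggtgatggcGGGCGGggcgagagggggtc
Cpt1a: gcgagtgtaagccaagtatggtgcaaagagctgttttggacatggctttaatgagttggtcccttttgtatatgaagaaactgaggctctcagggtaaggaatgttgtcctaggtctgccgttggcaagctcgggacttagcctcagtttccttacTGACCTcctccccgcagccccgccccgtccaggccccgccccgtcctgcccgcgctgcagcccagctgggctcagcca
Of the members, 7 had a RefSeq promoter window of 300 bases (250 before the start site and 50 after it). The full element of a pair of hexamers, AGGTCANAGGTCA on either strand, was in none of the 7 windows and in 0.0396% of 32851 windows of all genes. The single hexamer AGGTCA was in the windows of Cpt1a and Acadm and in 16.3% of all windows. GGGCGG was in the windows of Cpt1a, Cpt2, Acadl, Hadha, Hadhb and Ppara, not in that of Acadm, and in 35.7% of all windows. These matches describe letters in short windows and say nothing of binding.

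The libraries held 4106 cells (AOS 0), 3195 cells (B + A 0) and 5352 cells (B + A 10), with medians of 7371, 6407 and 3505 UMIs per cell, so B + A 10 was the shallowest. Pairs of libraries shared 17 to 34 cell barcodes, 82 barcodes in all. Cells were clustered with the 8 members and the other pathway genes left out, and clusters were named from marker lists, so each class below is a likeness and not an established type. The classes compared were stem-like cells (918 cells, led by Olfm4, with Smoc2 and Lgr5), cycling cells (2395, in 3 clusters, 1 of which also had the hemoglobin genes Hba-a1 and Hbb-b1 among its 10 leading genes), early enterocytes (990, led by Gsdmc2), mid enterocytes (1165, led by Ms4a18), proximal enterocytes (1059, led by Fabp1 and Rbp2), duodenal enterocytes (347, led by S100g), ileal enterocytes (843, led by Fabp6 and Slc10a2) and goblet-like cells (2228, led by goblet genes such as Muc2 and Agr2). A further enterocyte cluster of 1039 cells led by Slc5a12 had 4 proximal and 3 mature markers among its 10 leading genes. It was kept apart, since no cluster could be named mature enterocytes alone. Together the 6 enterocyte clusters, here the enterocyte pool, held 5443 cells and 29122287 UMIs. A level is the UMIs of a gene per 1000000 UMIs of the class, written CPM. Because only 3′ ends were counted, levels are compared between classes and libraries and not between genes.

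Enterocyte RNA was also found in cells that should not make it. Fabp1, Fabp2, Apoa1 and Rbp2, abundant enterocyte transcripts, stood in stem-like cells at 6.08% to 11.6% of their enterocyte level, in goblet-like cells at 13.2% to 28.4% and in T cells at 41.9% to 53.2%. All 8 members in stem-like cells lay above that range, at 24.4% (Ppara) to 63.3% (Acaa2) of the enterocyte level. In goblet-like cells Ppara (15.8%) and Acadl (22.2%) lay inside it and are read as background there, and the other members stood at 30.3% to 49.7%.

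All 8 members were higher in the enterocyte pool than in stem-like cells, and each was so in all 3 libraries. The ratios ran from 1.58 (1.44 to 1.74) for Acaa2 to 4.09 (2.89 to 5.99) for Ppara. A gene was counted as different between 2 sums where its level was at least 25% higher or at least 20% lower, a ratio and its inverse, with at least 100 UMIs in both sums together. By that rule all 8 members were higher, as were 36.2% of the 9221 genes tested, while 42.9% were lower, and the median log2 ratio over all genes was -0.10. The median log2 ratio of the 8 members was 1.10. The classes were formed from the same cells, with other genes, so these ratios describe the classes and test nothing. Ribosomal protein and defensin genes held 29.1% of the UMIs of stem-like cells and 10.0% of those of the enterocyte pool. With these genes left out of the totals, every ratio of pool to stem-like cells, over all genes, was lower by 0.34 on the log2 scale, and 7 of 8 members were then at least 25% higher beside 27.0% of all genes, with 54.0% lower. Acaa2, at a log2 ratio of 0.32, was the member that no longer counted, and none of the 8 changed direction. Levels below are scaled to all UMIs.

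The carnitine gate and the receptor were high in early enterocytes and low in the Slc5a12-led cluster. Cpt1a, the enzyme that admits long-chain acids to the mitochondrion, stood at 26.0 CPM in stem-like cells, 54.9 in cycling cells and 81.8 in early enterocytes, then at 48.4 in mid, 44.5 in proximal and 27.7 in Slc5a12-led enterocytes. The level in the Slc5a12-led cluster was 1.07 times (0.82 to 1.38) that of stem-like cells, the interval holding 1, while early enterocytes stood 3.15-fold (2.60 to 3.83) above stem-like cells. Duodenal enterocytes, at 80.3, could not be told apart from early ones. In AOS 0 early enterocytes had the higher Cpt1a level (98.6 against 93.0), whereas in B + A 0 (62.4 against 65.1) and B + A 10 (70.0 against 81.8) duodenal ones did. Ppara followed the same course at a low count. Its level was 6.5 CPM in stem-like cells, 14.4 in cycling cells, 37.1 in early, 28.3 in mid, 23.6 in proximal and 14.5 in Slc5a12-led enterocytes. Early enterocytes were the highest class for Ppara in the library AOS 0 (39.0) and in B + A 10 (35.0), whereas in B + A 0 duodenal enterocytes (42.6) stood above early ones (35.6), with wide intervals. Over the pooled libraries, Cpt1a and Ppara were the members whose levels were lower in the Slc5a12-led cluster than in early enterocytes. In the library AOS 0 alone, Cpt2 (94.8 against 101), Hadha (134 against 138) and Acaa2 (109 against 123) were lower there too, by less.

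Over the pooled libraries Cpt2, the partner enzyme on the inner membrane, did not share the decline of Cpt1a. It stood at 31.3 CPM in stem-like cells, 51.8 in cycling cells and 97.8 in early enterocytes, and then at 108 in mid, 113 in Slc5a12-led, 129 in proximal and 149.8 in duodenal enterocytes. Duodenal and proximal enterocytes did not differ beyond their intervals. Both Slc5a12-led and early enterocytes were above stem-like cells by a like amount, 3.61-fold (3.01 to 4.34) and 3.12-fold (2.62 to 3.74).

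Acadm and Acadl, the medium and long chain dehydrogenases, were higher in every enterocyte class than in stem-like cells. Acadm stood at 64.0 CPM in stem-like cells and 64.4 in cycling cells, a pair that did not differ beyond counting error, at 113 in early, 153 in mid and 162 in proximal enterocytes, and was highest at 184 in the Slc5a12-led cluster. In the library B + A 10, though, Acadm was higher in proximal enterocytes (167) than in that cluster (159). No other member had its highest level over the pooled libraries in that cluster. Proximal (162), duodenal (161), mid (153) and ileal enterocytes (147) did not differ from their neighbours in the order beyond the intervals. Acadl stood at 80.0 in stem-like cells, 86.1 in cycling cells and 139.7 in early enterocytes, and between 179 and 236 in the other 5 enterocyte classes. The proximal level of Acadl (210.0) lay above that of the Slc5a12-led cluster (187). Its goblet-like level of 39.9 was the lowest of its classes.

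Hadha and Hadhb, which flank the shared promoter region shown above, had almost the same order of classes. Hadha stood at 76.5 CPM in stem-like cells, 127 in early, 150.1 in mid, 182 in proximal and 212 in duodenal enterocytes, and at 104 in ileal ones. Hadhb stood at 96.8, 145, 151, 194, 193 and 115 in the same 6 classes. Ileal enterocytes were thus the enterocyte class with the lowest level of both, at 0.573 times (0.515 to 0.638) the proximal level for Hadha and 0.593 times (0.535 to 0.656) for Hadhb.

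Acaa2, the thiolase, differed most along the length of the gut. Its level was 409.8 CPM in duodenal enterocytes, 221 in proximal and 70.3 in ileal enterocytes. In the order AOS 0, B + A 0, then B + A 10 the duodenal level was 387, 397 and 440, and the ileal level was 70.9, 69.2 and 70.4, so the ranges of the 3 libraries did not overlap. Duodenal enterocytes were 5.83-fold (5.13 to 6.64) above ileal ones. Ileal enterocytes lay below stem-like cells (92.3) and next to goblet-like cells (66.0), which no other member showed. For the other members the same ratio of duodenal to ileal enterocytes was 2.03 for Hadha, 1.95 for Cpt1a, 1.70 for Cpt2, 1.68 for Hadhb, 1.32 for Acadl, 1.19 for Ppara and 1.09 for Acadm, and the intervals of the last pair held 1.

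**Figure D1:**
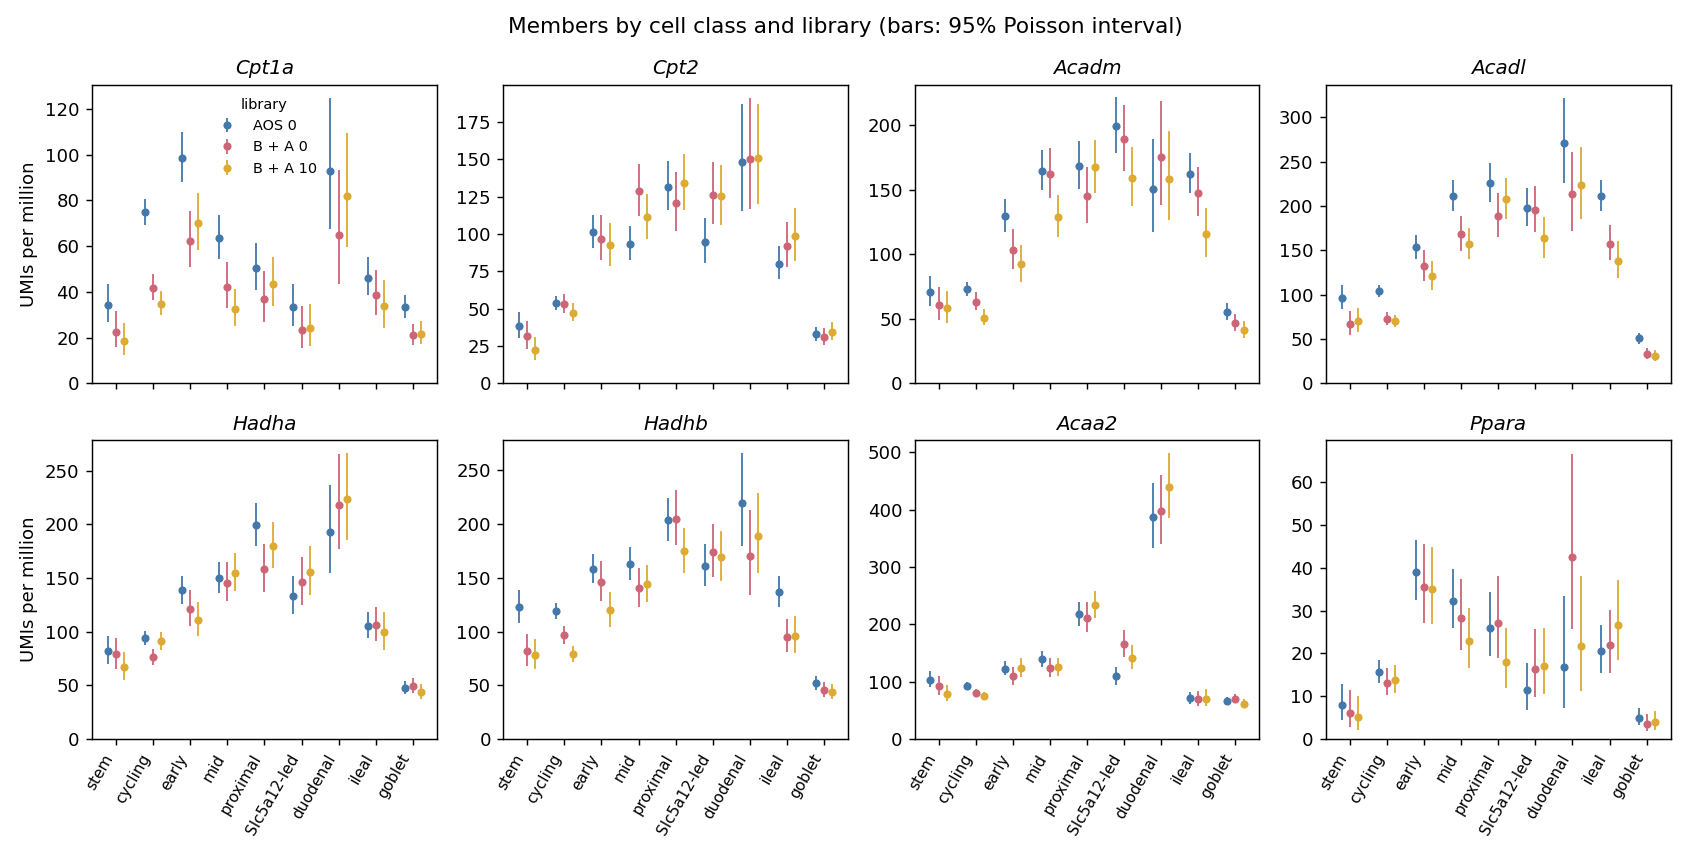
Level of each member in CPM (vertical axis, from 0) in 9 cell classes (horizontal axis), with 1 point per library and 95% Poisson intervals as bars. Cpt1a and Ppara are high in early enterocytes and low in the Slc5a12-led cluster, Acaa2 is highest in duodenal enterocytes at 387 to 440 and Acadm in the pooled cells of the Slc5a12-led cluster at 184.

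Read as shares of cells, the same pattern held at equal depth. After thinning each cell to 1000 UMIs, 10.6% (9.83% to 11.5%) of cells of the enterocyte pool and 3.16% (2.13% to 4.51%) of stem-like cells had a Cpt2 UMI. For Ppara the shares were 2.52% (2.12% to 2.97%) and 0.980% (0.449% to 1.85%). Unthinned, the shares were 40.6% and 15.3% for Cpt2 and 12.4% and 3.49% for Ppara. T cells, which hold more enterocyte RNA than stem-like cells, had a Cpt2 UMI in 6.70% of thinned cells, above stem-like cells and below enterocytes. How much of the stem-like share is background was not tested, so that share by itself is not read as expression. The median depth was 4585 UMIs in the enterocyte pool, 4945 in stem-like cells and 4341 in T cells.

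Over the 36 sums of 12 classes in 3 libraries, members resembled each other to different degrees. On the scale of log2(CPM + 1), Hadha and Hadhb had a Pearson correlation of 0.96, equal to that of Acadl with Hadha and of Acadl with Hadhb, so the pair with a shared promoter region was not set apart from those. Cpt1a had correlations of 0.70 to 0.79 with the mitochondrial members and 0.84 with Ppara, its highest. Acaa2 with Ppara was at 0.72. The points share libraries and cells, and these values are descriptions only.

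The genes outside the pathway lists with the most similar patterns differed between members. For Cpt1a they were Akr1c12 (0.92), Elovl6 (0.90), which lengthens fatty acids, and Dld (0.89), a subunit of mitochondrial dehydrogenase complexes. Hadhb was closest to Sdha (0.99), a subunit of respiratory complex II, with Mtch2 and Slc25a3, the mitochondrial phosphate carrier, both at 0.98. Hadha was closest to Tpi1 (0.98), Aprt (0.98) and Gapdh (0.97), and Acadl to Fbp2 (0.97), Cycs (0.97), which encodes cytochrome c, and Gpi1 (0.97). Acadm was closest to Gipc2 (0.98), Adtrp (0.97) and Ifngr2 (0.97), and Cpt2 to Pcsk5 (0.98), Ahcyl2 (0.98) and Cyb5b (0.97). Acaa2 had lower values, with Fth1 (0.95), a ferritin chain, Cbr1 (0.95) and Marc2 (0.94), as had Ppara with Kctd5 (0.94), Prpsap1 (0.94) and Pafah2 (0.93). All were searched among 6475 genes.

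Around the 8 members, 64 further genes of the pathway were in the table, and 58 of them had at least 100 UMIs in enterocytes and stem-like cells together. Of these, 39 were at least 25% higher in the enterocyte pool than in stem-like cells and 12 at least 20% lower, beside the 36.2% and 42.9% of all genes given above. Without ribosomal protein and defensin genes in the totals the counts were 30 and 12. The carnitine shuttle outside the members was higher in all 5 genes tested, Slc25a20, which carries acylcarnitine across the inner membrane, by 4.87-fold (3.64 to 6.66), Crot by 3.63-fold, Slc22a5, the carnitine importer, by 2.89-fold, Crat by 2.82-fold and Cpt1b by 1.94-fold. All 8 genes of peroxisomal oxidation were higher as well, with a median of 3.63-fold. Without ribosomal protein and defensin genes in the totals, 7 of these 8 were at least 25% higher. Ehhadh was 5.25-fold higher and Abcd3, a transporter of the peroxisomal membrane, 4.65-fold. Of the receptors and coactivators, Ppargc1a, a coactivator of mitochondrial gene programmes, was 11.96-fold (8.30 to 17.9) higher and Hnf4g 6.67-fold, whereas Rxrb was lower at 0.622 times. Fatty acid uptake and activation split, with 5 of 7 genes higher, among them Cd36 (12.5-fold), Slc27a4 (8.34-fold) and Acsl5 (5.63-fold), and Acsl3 (0.221 times) and Slc27a2 (0.574 times) lower.

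The steps after the carnitine gate were more mixed outside the members. Of 10 further acyl-CoA dehydrogenase and electron transfer genes tested, 6 were higher, led by Acad11 at 6.29-fold and Acadvl, the very long chain dehydrogenase, at 2.55-fold, and Acad9, Acadsb and Acad8 were lower at 0.413, 0.514 and 0.618 times. Without ribosomal protein and defensin genes in the totals, 3 of these 10 were higher and 3 lower. Of 5 further genes of the hydratase, dehydrogenase and thiolase steps, Hadh (2.25-fold) and Decr1 (2.40-fold) were higher and Eci1 was lower at 0.787 times. In the malonyl-CoA list, which holds the brake on Cpt1a, Mlycd was 1.94-fold higher and Acaca 0.616 times as high, and Acacb had too few UMIs to enter.

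Genes of ketone synthesis and use lay on either side. Of 7 tested, 3 were at least 25% higher in enterocytes and 3 at least 20% lower, beside 36.2% and 42.9% of all genes, with a median ratio of 1.03. With the other scaling none was higher by that rule and 3 were lower. Bdh1, which makes hydroxybutyrate, stood at 0.696 times (0.636 to 0.762) and Acat1 at 1.03 times (0.947 to 1.13). Oxct1, the enzyme that uses ketones, was 1.34-fold (1.22 to 1.48) higher.

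**Figure D2:**
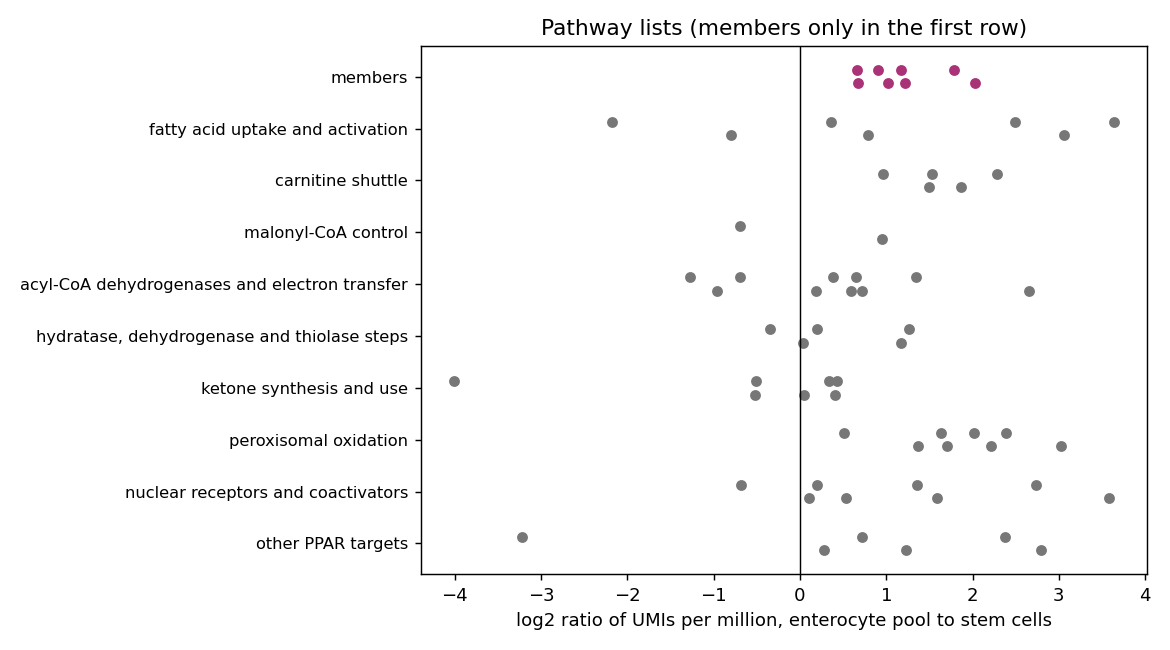
Log2 ratio of CPM, enterocyte pool to stem-like cells (horizontal axis), for the members and for the other genes of each pathway list with at least 100 UMIs, 1 point per gene. All 8 members and all 8 peroxisomal genes lie to the right of 0, while the ketone list has genes on either side.

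Busulfan against vehicle was compared within the enterocyte pool, where all 8 members had at least 100 UMIs in both libraries together. Among the members 1 differed by the same rule, Cpt1a, beside 16.4% of 8064 genes that differed in either direction and 11.1% that were at least 20% lower. The median log2 ratio over these genes was -0.06 and over the members -0.09. Cpt1a stood at 64.0 CPM in AOS 0 (819 UMIs) and 43.6 in B + A 0 (345 UMIs), a ratio of 0.681 (0.599 to 0.773). Acadl was next, at 199 and 168, a ratio of 0.844 (0.789 to 0.902), followed by Hadhb at 164 and 149 (0.909, 0.845 to 0.976) and Acadm at 159.7 and 148 (0.928, 0.863 to 0.997). Cpt2 went the other way, from 101 to 114 CPM, a ratio of 1.13 (1.04 to 1.23). The intervals of Hadha (0.957), Acaa2 (1.05) and Ppara (1.01) held 1.

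Adding AOS to busulfan left all 8 members on the near side of that rule, whereas 15.3% of 7601 genes tested differed in either direction. Cpt1a stood at 44.8 CPM in B + A 10 and 43.6 in B + A 0, a ratio of 1.03 (0.886 to 1.19). Acaa2 was higher in B + A 10, at 159.9 against 144, a ratio of 1.11 (1.02 to 1.20), and Acadm lower, at 133 against 148, a ratio of 0.894 (0.823 to 0.971). The other 5 intervals held 1. Both this comparison and the former use the library B + A 0, so their ratios are not independent.

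Against vehicle, B + A 10 also had 1 member that differed by the rule, Cpt1a at 0.700 (0.618 to 0.792), beside 27.4% of 8125 genes in either direction and 14.4% lower. Acadl followed at 0.809 (0.757 to 0.865), Acadm at 0.830 (0.771 to 0.893) and Hadhb at 0.878 (0.817 to 0.943), and Acaa2 (1.16) and Cpt2 (1.13, 1.04 to 1.23) were higher, both with intervals above 1. For Cpt1a and Acadl both busulfan libraries lay on the same side of the vehicle library, and near each other. The same held for Hadhb, at 164, 149 and 144 CPM in the order AOS 0, B + A 0, then B + A 10. It also held, in the higher direction, for Cpt2 at 101, 114 and 114.

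**Figure D3:**
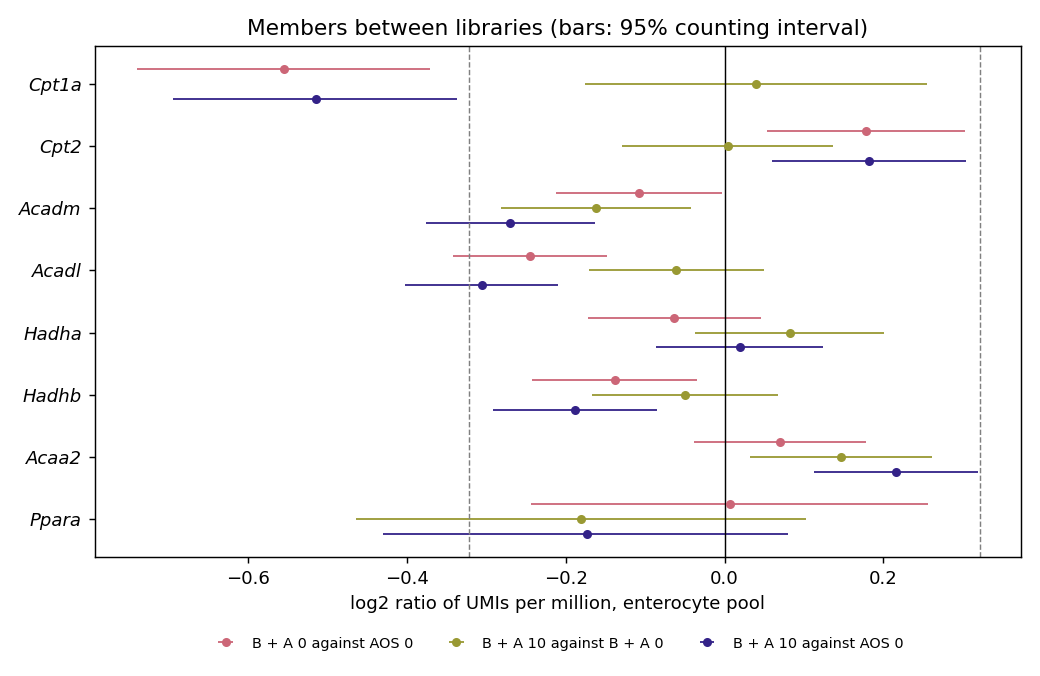
Log2 ratio of CPM in the enterocyte pool (horizontal axis) for each member and each of 3 library comparisons, with 95% counting intervals as bars and broken lines at 25% higher and 20% lower. Cpt1a lies beyond the left line in both comparisons with AOS 0, at ratios of 0.681 and 0.700, and at 1.03 between the busulfan libraries.

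The lower Cpt1a level was seen class by class. In the order AOS 0, B + A 0, then B + A 10, Cpt1a stood in cycling cells at 74.8, 41.9 and 34.9 CPM, in early enterocytes at 98.6, 62.4 and 70.0, and in mid enterocytes at 63.5, 42.3 and 32.5. In goblet-like cells the levels were 33.3, 21.0 and 21.7, and in stem-like cells 34.4, 22.7 and 18.3. In each of these classes the vehicle library was the highest. Of the 9 classes, 7 had at least 100 Cpt1a UMIs in AOS 0 and B + A 0 together, and all 7 ratios were below 1, from 0.560 (0.480 to 0.651) in cycling cells to 0.840 (0.611 to 1.14) in ileal enterocytes, with 4 intervals below 1. Of the 2682 genes with enough UMIs in these 7 classes, 20.1% were also below 1 in each of them. In cycling cells 6 of the 8 members had intervals below 1, beside 21.1% of 8193 genes. Cycling cells were the class with the most, and in each of the remaining classes 2 or 0 members had such intervals. Cycling cells also held the most UMIs of any class in either library, which narrows intervals. By the rule of at least 20% lower, 2 of 8 members were lower in cycling cells, beside 12.8% of genes. In stem-like cells 3 of 7 were, beside 14.8% of 4046 genes. Without the weight of class sizes, as the mean log2 ratio of the 6 enterocyte classes, Cpt1a was at -0.50, or 0.708 times.

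Acadl was below vehicle in all 9 classes in either busulfan library, beside 9.01% of 1210 genes for B + A 0 and 19.4% of 1321 genes for B + A 10, with 6 and 7 intervals below 1. The 9 classes include goblet-like cells, where Acadl is read as background. In cycling cells it stood at 104, 73.1 and 70.1 CPM in the order AOS 0, B + A 0, then B + A 10, and in ileal enterocytes at 211, 158 and 139. In the Slc5a12-led cluster vehicle (198) and B + A 0 (196) were close, while B + A 10 was at 164. T cells, outside the 9 classes and with much enterocyte RNA, had Acadl at 93.3, 107 and 133 CPM in the same order. Hadhb was lower than vehicle in stem-like cells at 123, 81.5 and 77.8 and in ileal enterocytes at 136.5, 95.3 and 96.3, whereas proximal enterocytes were at 204, 205 and 175. Its neighbour Hadha stood at 82.1, 78.8 and 67.1 in stem-like cells, 105.5, 106 and 99.4 in ileal enterocytes and 199, 158 and 180 in proximal enterocytes, where its ratio of B + A 0 to AOS 0 was 0.796 (0.667 to 0.948). The difference between both genes was not tested.

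Cpt2 and Acaa2 differed in the opposite direction in the Slc5a12-led cluster. Cpt2 stood there at 94.8, 126 and 125 CPM in the order AOS 0, B + A 0, then B + A 10, and Acaa2 at 109, 166 and 142. In stem-like cells the same genes were at 38.3, 31.4 and 22.1 and at 103, 92.2 and 78.4. Vehicle was thus the lowest library in the Slc5a12-led cluster and the highest in stem-like cells. In the Slc5a12-led cluster these were the 2 members, of 6 with at least 100 UMIs, that were at least 25% higher than vehicle in either busulfan library, beside 16% of 3253 genes for B + A 0 and 20.8% of 3348 genes for B + A 10. The higher Cpt2 level was not particular to that cluster. In mid enterocytes Cpt2 stood at 93.2, 129 and 111 CPM in the same order. The ratio of B + A 0 to AOS 0 there, 1.38, was its highest of the 9 classes. That ratio was above 1 in 4 classes and below 1 in 5. Ppara had 100 UMIs or more in only 3 of 9 classes, and none of those 3 intervals left out 1 in either comparison with vehicle.

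**Figure D4:**
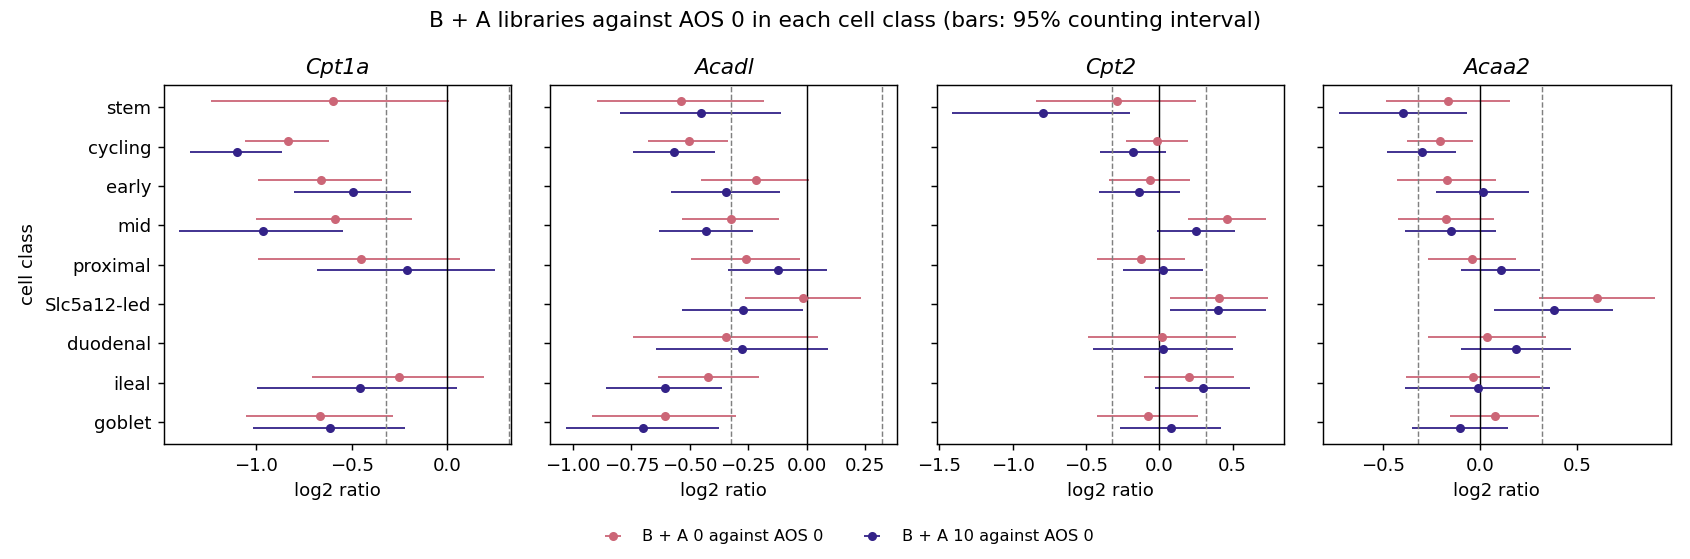
Log2 ratio of B + A 0 and B + A 10 to AOS 0 (horizontal axes) for 4 members in each class where both libraries together hold at least 100 UMIs, with 95% counting intervals as bars and broken lines at 25% higher and 20% lower. The Cpt1a and Acadl points lie left of 0 in every class shown, while Cpt2 and Acaa2 lie right of 0 in the Slc5a12-led cluster.

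Other measures also differed between the libraries in the enterocyte pool. Summed over the marker list, Paneth genes (22 in the table) stood at 2552, 6053 and 4377 CPM in the order AOS 0, B + A 0, then B + A 10, goblet genes (21) at 4328, 9981 and 8927 and T cell genes (15) at 185, 666 and 842, with none of these markers at 0. B cell or plasma cell genes, with 1 of 6 at 0, were at 1199, 670.4 and 897. The part of such RNA in the ratios was not tested. Leaving out the 5% of cells with the highest doublet scores gave ratios for Cpt1a inside the intervals above. Only 1.45% of the cells of the pool were among those, so this step could move the ratios little and does not measure such RNA. Early enterocytes, where Cpt1a was among the highest, were 9.01% of the cells of AOS 0 and 6.82% of those of B + A 0.

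Of the other pathway genes, 53 could be compared between B + A 0 and AOS 0 in the enterocyte pool, and 7 differed by the rule, beside the 16.4% of all genes. Angptl4 (1.63, 1.23 to 2.16) and Acot2 (1.73, 1.24 to 2.40), listed as targets of the PPAR family of receptors, Acaa1b (1.61, 1.34 to 1.93), a peroxisomal thiolase, and Acad11 (1.28, 1.10 to 1.48) were higher, and Acsl3 (0.441, 0.277 to 0.680), Oxct1 (0.792, 0.731 to 0.859) and Acsf2 (0.770, 0.572 to 1.03) lower. Between B + A 10 and B + A 0, 7 of 52 genes did so, beside 15.3% of all genes. Cd36, a fatty acid receptor, was at 24.5 CPM in B + A 0 and 38.9 in B + A 10, a ratio of 1.59 (1.33 to 1.91), and Slc16a6 (1.70, 1.29 to 2.26), Cidec (1.34, 1.10 to 1.64), Slc22a5 (1.29, 1.02 to 1.63) and Acsf2 (1.26, 0.918 to 1.74) were higher too. Acaa1b (0.750, 0.616 to 0.911) and Acaca (0.757, 0.543 to 1.05) were lower.

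B + A 10 differed from AOS 0 in 18 of 54 pathway genes, 10 higher and 8 lower, beside the 27.4% of all genes. The higher ones included Cd36 (1.91, 1.62 to 2.26), Slc16a6 (2.02, 1.57 to 2.61), Acot2 (1.85, 1.35 to 2.56), Angptl4 (1.67, 1.27 to 2.21) and Cidec (1.62, 1.34 to 1.95), and among the lower ones were the electron transfer subunit Etfa (0.753, 0.707 to 0.801), Eci1 (0.754, 0.687 to 0.826), Acads (0.779, 0.703 to 0.862), Oxct1 (0.726, 0.669 to 0.787) and Vnn1 (0.724, 0.610 to 0.856). Of the 5 tested genes listed as other PPAR targets, 4 differed, 3 higher and 1 lower. Of 11 acyl-CoA dehydrogenase and electron transfer genes, members included, 2 were higher and 3 lower.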

How the data were processed

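The deposited table held values of 3 droplet libraries, 1 per group, each of the combined cells of 6 mice. Per the submitters' processing notes the reads were processed with Cell Ranger (version 2.2.0) on mm10, and per the study's methods the cell number was forced to 5000, which the 5352 cells of B + A 10 exceed, and cells with fewer than 200 genes and genes in fewer than 3 cells were removed. The authors deposited natural log values, ln(1 + UMIs per 10000 UMIs of the cell). All 24333763 values above 0 came back to whole UMIs within 0.01 (100%), and these recovered UMIs were used. Library totals were 23003083 to 35258551 UMIs. The number of value columns that could not be tied to a library was 0.

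Libraries were joined and cells clustered with Seurat 5.3.0 in R 4.3.3 (canonical correlation, 20 dimensions, 20 neighbours, resolution 0.8, 2000 variable genes without the members and pathway genes), which gave 20 clusters. A cluster took the name of the marker list with most of its 10 leading genes, with at least 3 of them and at least 2 more than any other list. This naming rule, and keeping the Slc5a12-led cluster apart, were chosen after the clusters were seen. Doublets were kept, with the 5% of cells of each library with the highest Scrublet scores (scanpy 1.11.5, 159 to 242 cells per library) left out as an alternative.

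UMIs were summed per class and library and scaled to 1000000 (CPM) with exact Poisson intervals. Ratios have exact binomial (Clopper-Pearson) intervals, and all are 95% intervals of counting error only. The ratio code was tested on simulated data. Genes were compared with at least 100 UMIs in both sums together. The members and the gene and marker lists were chosen with earlier results of these data known. The named genes are the members, the pathway genes by list and, for each member, the 3 genes with the most similar pattern. Cpt1c, Cyp4a14, Plin2 and Fgf21 were not analysed here, and some genes counted in the lists are not reported here by name. Gene and promoter positions are from RefSeq on GRCm38.p6, and exons from GENCODE M21. Effects of the alternatives are given in the closing section.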

Additional observations from a re-analysis of the deposited data

Results flagged for a closer look

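In 3 cases the counting interval of a member's ratio lay above 1 in one class and below 1 in another under the same comparison, and the difference between the classes was not tested. For B + A 0 against AOS 0, Acaa2 had a ratio of 1.52 (1.23 to 1.87) in the Slc5a12-led cluster, from 192 and 183 UMIs, and 0.868 (0.771 to 0.976) in cycling cells. For B + A 10 against AOS 0, Acaa2 had a ratio of 1.30 (1.05 to 1.61) in the Slc5a12-led cluster, 0.760 (0.604 to 0.953) in stem-like cells and 0.812 (0.718 to 0.917) in cycling cells. In the same comparison Cpt2 had a ratio of 1.32 (1.05 to 1.66) in the Slc5a12-led cluster and 0.578 (0.376 to 0.871) in stem-like cells, the latter from 35 and 78 UMIs. Of the 6 members with at least 100 UMIs in all 9 classes, this was 1 for B + A 0 and 2 for B + A 10, beside 20.7% of 1210 and 15.5% of 1321 genes with as many UMIs. The intervals cover counting error only, with 1 library per group.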

How the results depend on the processing

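No paired analysis was possible because each group was 1 library. Over 15 alternatives, each member stayed higher in the enterocyte pool than in stem-like cells, and Cpt1a kept ratios of 0.629 to 0.708 (B + A 0 against AOS 0) and 0.653 to 0.729 (B + A 10 against AOS 0) over 13 alternatives. Of 105 recomputed counts 95 stayed within 1.5 times, of 430 recomputed member values 27 moved beyond their counting interval, and 0 ratios with an interval that left out 1 changed direction. Some ratios with an interval holding 1 took either sign, such as that of Ppara for B + A 0 against AOS 0. With each cell thinned to 1000 UMIs, 2 members differed between B + A 0 and AOS 0 (Cpt1a and Hadhb, beside 20.4% of all genes) and 2 between B + A 10 and AOS 0 (Cpt1a and Ppara, beside 30.1%), and with classes weighted equally 2 did in the latter (Cpt1a and Acadl, beside 28.1%). The cause was not tested. At a threshold of 1.5-fold, a stricter rule by construction, 0 members differed in either comparison with AOS 0, and of the other pathway genes 4 did for B + A 0 against AOS 0, 2 for B + A 10 against B + A 0 and 6 for B + A 10 against AOS 0. With no minimum of UMIs, which adds sparse genes, 12 and 17 pathway genes differed in the first pair of comparisons. The share of all genes under either of these rules is not reported here, so these counts are not read as high or low. The filter of at least 500 genes left the 5443 pool and 918 stem-like cells as they were. Thinned counts and stem-like Ppara are limited by few UMIs, and mouse and library differences cannot be told apart from treatment.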
